A study of Mus musculus with 21 samples.

Results

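The change between day 3 and day 5 of treatment with vitamin B6 was followed in E14 cells, an established line of mouse embryonic stem (ES) cells. The 3 libraries of cells given 20 µM pyridoxine (VB6, a form of vitamin B6) for 5 days were set against the 3 libraries of cells given it for 3 days, 6 of the 21 libraries of the series. They were taken by their labels as the middle of the VB6 course, and for their like fragment lengths, which were estimated from the deposited values. The other groups, of 3 libraries each, are E14 cells given VB6 for 7 days, cells given the vehicle for 3, 5 or 7 days, and untreated cells in standard culture. All come from 1 cell line, and the labels name no added allele and do not give the step that started differentiation. The series title names endoderm differentiation, glycolysis and histone lactylation, and the comparison asks which genes moved in the middle of the treated course. Nothing in the labels says whether replicates are separate cultures, so p-values measure only the spread between these libraries, which may be technical.

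Total expected counts (estimated read counts per gene) ran from 15882380 to 21629730 over the 6 libraries. Estimated fragment lengths overlapped, at 307.8 to 316 nucleotides at VB6 day 5 and 306.9 to 313 nucleotides at VB6 day 3. The groups did not overlap in the mean GC content of the counted RNA (48.8 to 49.2% at VB6 day 5 and 48.3% in each library at VB6 day 3), in the share of counts of ribosomal protein genes (5.66 to 6.69% at VB6 day 5 and 6.84 to 7.11% at VB6 day 3) or in that of mitochondrially encoded genes (2.04 to 2.49% at VB6 day 5 and 2.58 to 2.86% at VB6 day 3). VB6 day 5 replicate 3 had the lowest total and the lowest of both shares.

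As background, ES cells hold themselves undifferentiated with a network of transcription factors built around Pou5f1, Sox2 and Nanog, and leave it through an epiblast-like state. Endoderm arises in the early mouse embryo by more than 1 route. Primitive endoderm gives the visceral and parietal endoderm of the yolk sac, and definitive endoderm leaves the epiblast through the primitive streak. Visceral endoderm works much like an early liver and gut: it takes up protein by endocytosis, digests it in lysosomes, and secretes apolipoproteins and carrier proteins. Sox17, Foxa2, Gata4, Gata6 and Hnf4a are used on several of these routes and do not tell them apart alone.

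Genes of endoderm, of secreted plasma proteins, of the epithelial and contractile cytoskeleton and of the basement membrane were higher at VB6 day 5 than at VB6 day 3. Much of the pluripotency network, the de novo DNA methylation enzymes and the genes of ribosome and cholesterol production were lower. Of 18901 genes tested with edgeR's quasi-likelihood test, 5646 rose (29.9%) and 4982 fell (26.4%) at a Benjamini-Hochberg adjusted p under 0.05. Of these, 1990 rose (10.5%) with a log2 fold change of at least 1 and 1446 fell (7.65%) with one of −1 or lower. All 3 day 5 libraries lay above all 3 day 3 libraries for 6257 genes (33.1%) and below them for 5708 genes (30.2%). The counts of list members below are read beside these shares. The median log2 fold change of all genes was 0.02, and on log2 TPM values (abundance scaled for length) it was shifted by 0.12. On that scale limma called 6236 genes higher and 2963 lower, 67.8% of calls higher, against 53.1% in the edgeR fit. All levels given are of RNA, also where a protein is named. In bulk cultures, fewer cells of a type and less RNA per cell cannot be told apart.

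**Figure D1:**
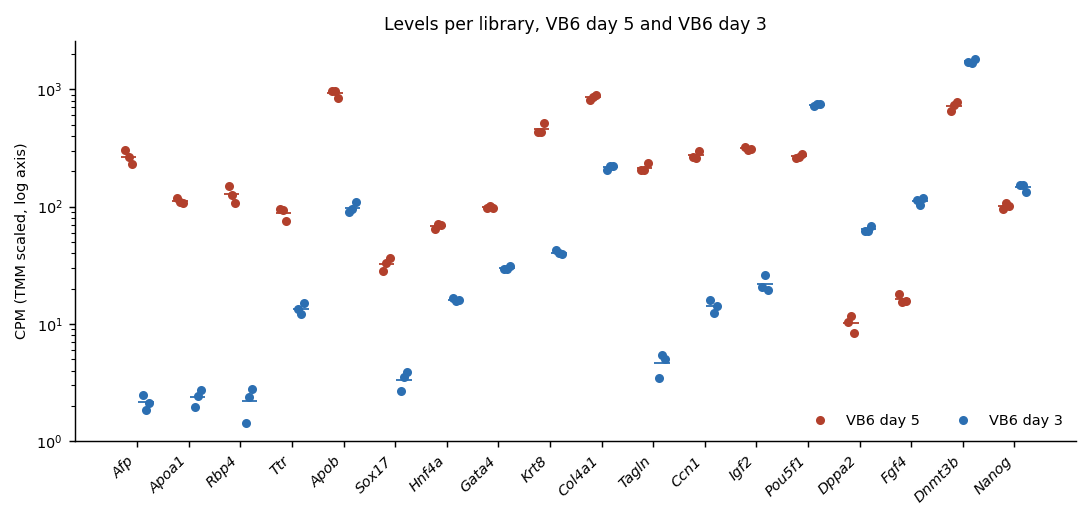
Levels in CPM (counts scaled to library size with TMM factors, log axis) of 18 genes in each library, VB6 day 5 left of VB6 day 3; points are libraries and bars are means of 3. The genes were picked from those named in the text, and the groups do not overlap for any of them. Among all genes tested, 33.1% lay higher and 30.2% lower at VB6 day 5 without overlap. Afp lies between 229 and 301 CPM at VB6 day 5, against 1.83 to 2.50 CPM at VB6 day 3. Pou5f1 lies between 257 and 283 CPM at VB6 day 5, against 724 to 756 CPM at VB6 day 3.

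Contractile and secreted-protein genes were among the steepest rises. Afp, the alpha-fetoprotein carrier made by yolk sac and fetal liver, had 301, 267 and 229 CPM at VB6 day 5, against 2.50, 1.83 and 2.12 CPM at VB6 day 3. Its log2 fold change was 6.96 ± 0.18 (standard error, SE, edgeR adjusted p = 1.38e-17). Each SE of a log2 fold change is its size divided by the square root of edgeR's F statistic, an approximation. Acta2, the smooth muscle actin, had 34.3, 39.0 and 40.9 CPM at VB6 day 5, against 0.119, 0.530 and 0.0988 CPM at VB6 day 3. Its log2 fold change was 7.16 ± 0.24, and over all fits tried it ran from 5.26 to 8.37, so the SE understates how loosely it is known. Afp and Acta2 were both clearly detected in every day 5 library, and no day 3 library came near them. For Acta2, VB6 day 3 replicates 1 and 3 lay under the level of 3 counts, which is 0.139 to 0.174 CPM in the day 3 libraries. The 15 steepest were taken among protein-coding genes that passed the test, had at least 5 CPM at VB6 day 5 and did not overlap between the groups. Detection at day 5 and a gap to day 3 were thus conditions of the choice and are no further result. The others of the 15 included Frmpd2, Nr2f2, Acta1, Apoc2, Fgb, S100g, Tgfb2, Rbp4, Synpo2l, Spp2, Apoa1 and Tagln. For those with almost no reads at day 3 the counts say more than a fold. Nr2f2, an orphan nuclear receptor, had 161, 157 and 138 counts at VB6 day 5, against 0, 0 and 2 counts at VB6 day 3. Frmpd2, which encodes a scaffold protein, had 97, 131 and 98 counts at VB6 day 5, against 0, 1 and 0 counts at VB6 day 3. Tgfb2, a secreted growth factor, had 170, 179 and 158 counts at VB6 day 5, against 3, 2 and 4 counts at VB6 day 3. All 3 genes were thus close to undetected at VB6 day 3.

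Lipoprotein genes rose almost throughout. Of 12 listed, 11 were tested, 10 rose and 1 fell, with a median log2 fold change of 3.23. Apob, the core protein of very low density lipoprotein, had 958, 963 and 842 CPM at VB6 day 5, against 90.5, 95.1 and 109 CPM at VB6 day 3. Mttp, which loads lipid onto Apob, averaged 147 ± 1.27 CPM at VB6 day 5 and 32.2 ± 2.59 CPM at VB6 day 3 (SD, n = 3 each, as for every mean ± value below). The RNAs for both steps of particle assembly were higher in every day 5 library than in any day 3 library. Apoa1, the main protein of high density lipoprotein, had 118, 108 and 107 CPM at VB6 day 5, against 1.96, 2.41 and 2.72 CPM at VB6 day 3. Apoc2, the cofactor of lipoprotein lipase, had a log2 fold change of 5.98 ± 0.25, Apom 4.14 ± 0.16 and Apoa4 3.84 ± 0.14. The member that fell was Pltp, the phospholipid transfer protein, with a log2 fold change of −0.43. Apoc3 had too few counts to be tested.

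Carrier and other secreted proteins gave 9 rises and 2 falls in 13 tested of 17 listed, with 1 fall on log2 TPM values and without VB6 day 3 replicate 2. Rbp4, the plasma carrier of retinol, had 150.1, 125 and 108 CPM at VB6 day 5, against 1.43, 2.36 and 2.77 CPM at VB6 day 3. Ttr, which binds Rbp4 and thyroid hormone, had 94.7, 93.9 and 75.8 CPM at VB6 day 5, against 13.5, 12.1 and 14.9 CPM at VB6 day 3. Ttr was thus already well detected at day 3, when Rbp4 was low, and both were higher in every day 5 library. The transferrin gene Trf had a log2 fold change of 3.50 ± 0.18, and the trypsin inhibitor Spink1 one of 3.67 ± 0.19. Fetub and Spp1 fell, by 0.95 and 1.20 on the log2 scale. Alb, the albumin gene of later liver, had too few counts to be tested, as had Ahsg, Serpina1b and Vtn.

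Of 16 coagulation and protease inhibitor genes, 13 rose and 1 fell (A2m), with a median of 1.77. The groups overlapped for A2m, and its call was lost on log2 TPM values and without VB6 day 3 replicate 2. Fgb, the fibrinogen beta chain, had 18.8, 14.2 and 15.3 CPM at VB6 day 5, against 0.178, 0.385 and 0.198 CPM at VB6 day 3. Fga, the alpha chain, had 78, 73 and 66 counts at VB6 day 5, against 0, 1 and 5 counts at VB6 day 3, which is 217 against 6 in all, a ratio of 39.8 after scaling for totals, with an exact 95% interval of 18.0 to 109.7 for counting error only. Prothrombin, F2, averaged 10.8 ± 0.277 CPM at VB6 day 5 and 1.35 ± 0.277 CPM at VB6 day 3, and F5, the cofactor with which thrombin is formed, averaged 19 ± 1.67 CPM at VB6 day 5 and 2.06 ± 0.299 CPM at VB6 day 3. The RNAs of these fibrinogen chains and of the factors around thrombin were thus higher together, without overlap between the groups.

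The bases before the annotated starts of 4 steeply rising genes are shown to place the motifs found in them. They come from RefSeq on GRCm38.p6, 200 bases each, 5′ to 3′ on the gene's strand, with motif matches in capitals. They lie at chr5:90490514-90490713 (plus strand) for Afp, chr1:171224854-171225053 (plus strand) for Apoa2, chr3:83049864-83050063 (minus strand) for Fgb and chr8:123894776-123894975 (minus strand) for Acta1.
Afp: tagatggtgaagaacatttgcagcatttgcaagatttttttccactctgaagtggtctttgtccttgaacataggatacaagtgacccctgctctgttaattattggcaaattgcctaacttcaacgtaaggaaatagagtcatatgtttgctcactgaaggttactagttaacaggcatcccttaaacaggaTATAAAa
Apoa2: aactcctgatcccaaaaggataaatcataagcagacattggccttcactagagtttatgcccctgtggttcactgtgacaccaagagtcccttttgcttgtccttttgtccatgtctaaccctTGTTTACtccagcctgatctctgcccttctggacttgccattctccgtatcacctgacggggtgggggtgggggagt
Fgb: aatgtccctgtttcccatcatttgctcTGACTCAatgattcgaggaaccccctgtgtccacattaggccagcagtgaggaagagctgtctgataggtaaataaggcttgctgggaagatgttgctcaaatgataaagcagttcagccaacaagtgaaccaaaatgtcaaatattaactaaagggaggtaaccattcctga
Acta1: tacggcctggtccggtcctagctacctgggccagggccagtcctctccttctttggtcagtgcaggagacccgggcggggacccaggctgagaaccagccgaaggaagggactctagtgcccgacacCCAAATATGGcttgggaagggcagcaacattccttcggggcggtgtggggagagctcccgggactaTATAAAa
The capitals mark the letters of the TATA box motif (TATAAA) beginning 7 bases before the annotated start in Afp and Acta1. They also mark a FOXA motif (TGTTTAC) 77 bases before the first listed start of Apoa2 and an AP-1 motif (TGANTCA) 173 bases before the start in Fgb. A CArG box lies 73 bases before the start in Acta1. Whether the annotated starts are those used in these cells, and whether TATAAA so close to them acts as a TATA box, was not tested. The search, on both strands, also covered the GATA motif (AGATAA) and the HNF1, HNF4 (CAAAGTCCA), octamer (ATGCAAAT) and CRE (TGACGTCA) motifs. The CArG box was added after values had been seen. The table gives a second start for Apoa2, and none of these motifs lies in the 200 bases before it, which are not printed. Matches are a description of the letters and not of bound sites.

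Over windows of 250 bases before to 50 after the start, the FOXA motif was found in 3.00% of 4161 genes that rose, 3.20% of 3248 that fell and 3.17% of 12201 tested genes with a sequence. The GATA motif was found in 8.07% of those that rose, 7.85% of those that fell and 7.89% of those tested. The shares lie close together, and no test was made of them. Among the 131 genes that rose with a log2 fold change of at least 3, a limit chosen after values were seen, the TATA box was found in 18.3%, GATA in 12.2%, AP-1 in 10.7%, FOXA in 6.11%, the CArG box in 3.82%, the octamer in 3.05% and CRE in 1.53%. The HNF1 and HNF4 motifs were found in none of them, against 0.0574% and 0.484% of the tested genes. Over the 12201 tested genes these shares were 9.18% for the TATA box, 7.89% for GATA, 6.16% for AP-1, 3.17% for FOXA, 1.61% for the CArG box, 1.66% for the octamer and 3.29% for CRE. Over all 27025 genes with a sequence, which include many that were not expressed here, they were 15.7%, 12.7%, 8.97%, 4.05%, 1.81%, 1.97% and 2.03% in the same order.

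The transcription factors of endoderm moved the same way as these products. Of 21 listed, 19 were tested, 14 rose and 1 fell (Prdm1). The call for Prdm1 was lost on log2 TPM values (−0.16) and without VB6 day 3 replicate 1 (−0.32). Sox17 had 28.1, 33.1 and 36.3 CPM at VB6 day 5, against 2.67, 3.52 and 3.85 CPM at VB6 day 3, a log2 fold change of 3.26 ± 0.14. Hnf4a, a nuclear receptor that drives liver and visceral endoderm genes, had 64.8, 71.3 and 69.4 CPM at VB6 day 5, against 16.6, 15.7 and 15.9 CPM at VB6 day 3. For both, the lowest day 5 library was several times the highest day 3 library. Foxa2, which opens chromatin at endoderm genes, averaged 20.0 ± 1.29 CPM at VB6 day 5 and 4.28 ± 0.373 CPM at VB6 day 3. Gata4 averaged 99.3 ± 2.36 CPM at VB6 day 5 and 30.0 ± 1.06 CPM at VB6 day 3, and Gata6 averaged 25.7 ± 1.11 CPM at VB6 day 5 and 11.4 ± 1.54 CPM at VB6 day 3. None of these groups overlapped. Cited1, a transcriptional coactivator, had a log2 fold change of 1.88 ± 0.09 and Klf6 1.74 ± 0.08. Eomes, a T-box factor upstream of endoderm in the embryo, had 25.4, 33.5 and 33.9 CPM at VB6 day 5, against 29.2, 28.8 and 32.0 CPM at VB6 day 3. Its groups overlapped and it did not pass the test (log2 fold change 0.04 ± 0.12, edgeR adjusted p = 0.774).

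Markers listed for primitive and parietal endoderm rose in 11 of 12 and none fell. Pdgfra, a growth factor receptor of primitive endoderm, averaged 58.1 ± 6.01 CPM at VB6 day 5 and 12.6 ± 0.600 CPM at VB6 day 3. Pth1r, the receptor for parathyroid hormone-related protein on parietal endoderm, averaged 49.0 ± 1.32 CPM at VB6 day 5 and 8.25 ± 1.19 CPM at VB6 day 3. Neither overlapped between the groups. Of the 16 genes listed for definitive endoderm, 8 rose and 1 fell (Trh), with a median of 0.21. The risers were Sox17, Foxa2, Gata4, Foxa1, Kit and the keratins Krt8, Krt18 and Krt19, several of which primitive endoderm also expresses. Cxcr4, Gsc and Cer1, genes of definitive or anterior endoderm, averaged 1.12, 0.798 and 0.302 CPM at VB6 day 5 and 1.26, 0.986 and 0.460 CPM at VB6 day 3, and their log2 fold changes of −0.16, −0.30 and −0.55 did not pass the test. The lists share genes, and which kind of endoderm the cultures held was not tested.

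Genes of uptake and digestion rose along with those of secretion. The lists are not separate: Amn and Ctsh, named here, were also counted in the list of carrier and other secreted proteins. Among 17 endocytic receptors and adaptors tested of 18 listed, 13 rose and 1 fell. Gpc3, a proteoglycan of the cell surface, had 635, 589 and 571 CPM at VB6 day 5, against 107, 116 and 105 CPM at VB6 day 3. Amn, which holds the scavenger receptor cubilin at the surface, had a log2 fold change of 2.07 ± 0.12, and the clathrin adaptor Dab2 one of 1.46 ± 0.07. The member that fell was the transferrin receptor Tfrc, by 0.97 on the log2 scale, while the gene of its ligand, Trf, rose. The falls numbered 2 with DESeq2, in a fit of the 6 libraries alone, under other filters and without VB6 day 5 replicate 3, and 3 after the correction for GC content and length. Of 15 solute carriers of absorptive epithelium tested of 18 listed, 13 rose and 1 fell (Slc5a11), and 2 fell with DESeq2 and after the correction. The sulfate transporter Slc13a4 had 60.2, 59.5 and 65.8 CPM at VB6 day 5, against 4.99, 2.46 and 3.06 CPM at VB6 day 3, and the zinc transporters Slc39a8 and Slc39a5 had log2 fold changes of 2.94 and 3.64. Of 23 lysosome genes tested of 24 listed, 19 rose and 1 fell (Atp6v1h), with a smaller median of 0.50. The fall was not called with no filter, on log2 TPM values, or without VB6 day 5 replicate 1 or 3 or any 1 VB6 day 3 library. The cathepsin genes Ctsh, Ctsc, Ctsz and Ctsb had log2 fold changes of 2.54, 1.52, 1.04 and 1.03.

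**Figure D2:**
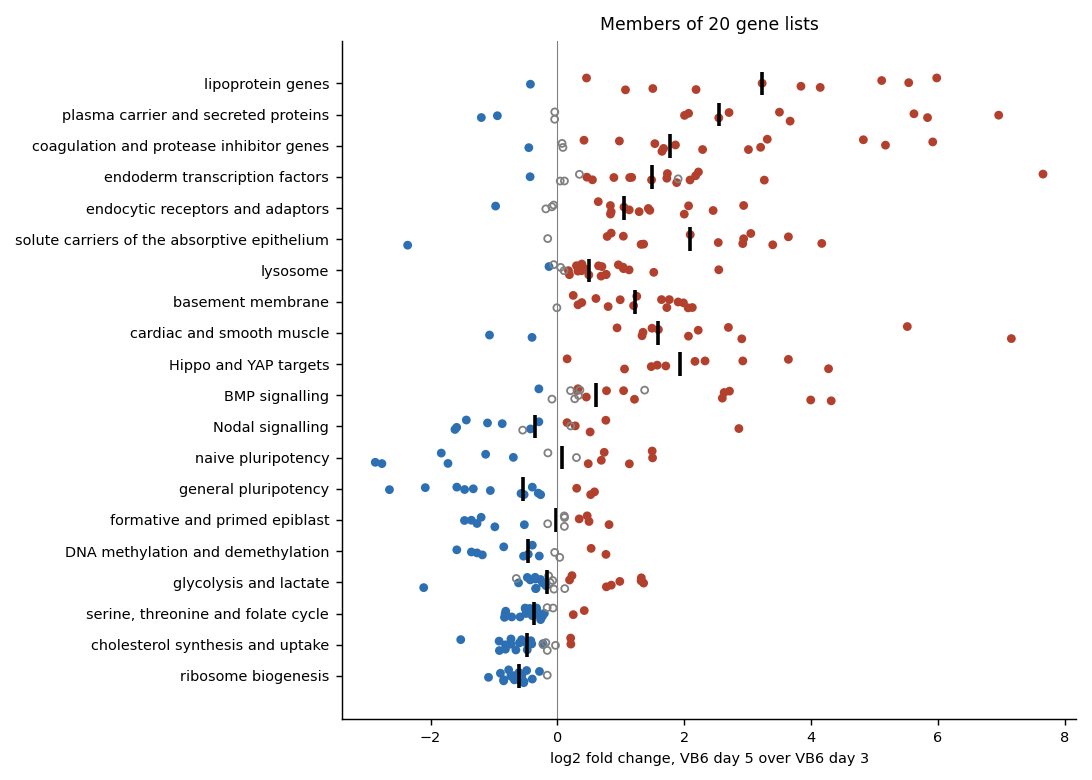
Log2 fold changes, VB6 day 5 over VB6 day 3, of the tested members of 20 gene lists. Filled points right and left of 0 are genes that rose and fell, open points did not pass the test, and black bars are list medians, which run from 3.23 for lipoprotein genes to −0.61 for ribosome biogenesis.

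Basement membrane genes rose in 15 of 16 and none fell, with a median of 1.23, while 1 fell after the correction for GC content and length. Col4a1, a chain of collagen IV, had 815, 863 and 893 CPM at VB6 day 5, against 204, 223 and 221 CPM at VB6 day 3. Lama1, a laminin chain of the early embryo, had 397, 414 and 431 CPM at VB6 day 5, against 88.7, 101 and 94.3 CPM at VB6 day 3. The RNAs of both network-forming proteins were thus higher in every day 5 library. Their partners Col4a2 and Lamb1 had log2 fold changes of 2.06 ± 0.11 and 1.25 ± 0.06. Serpinh1, the chaperone that folds collagen, had 1.64 ± 0.08, and Sparc, which binds collagen, 1.90 ± 0.07.

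In a list that joins epithelial genes with those of epithelial-mesenchymal transition, 17 of 24 rose and 3 fell (Fn1, Grhl2 and Zeb1). The risers include the mesenchymal cadherin gene Cdh2 (0.50) and the transition factors Snai1 (1.29), Snai2 (1.25) and Zeb2 (2.40), and the faller Grhl2 is an epithelial regulator. The keratin gene Krt8 had 429, 436 and 519 CPM at VB6 day 5, against 42.4, 40.0 and 39.1 CPM at VB6 day 3, and Krt18, whose protein pairs with that of Krt8 in filaments, averaged 472 ± 39.1 CPM at VB6 day 5 and 101 ± 5.87 CPM at VB6 day 3. The tight junction genes Cldn4, Cldn7 and Cldn6 had log2 fold changes of 1.87, 1.53 and 1.13. All 10 genes listed for the Hippo pathway, in which YAP and TEAD proteins respond to cell shape and tension, rose. The matricellular target Ccn1 had 264, 258 and 298 CPM at VB6 day 5, against 16.0, 12.3 and 14.2 CPM at VB6 day 3. Lats2, a kinase that restrains YAP, averaged 41.9 ± 1.77 CPM at VB6 day 5 and 5.54 ± 0.806 CPM at VB6 day 3. For these genes the groups did not overlap.

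Of 13 cardiac and smooth muscle genes tested of 14 listed, 11 rose and 2 fell (Myh6 and Myl7). Tagln, an actin-binding protein of smooth muscle, had 206, 205 and 234 CPM at VB6 day 5, against 3.45, 5.39 and 5.04 CPM at VB6 day 3. Tpm1, a tropomyosin, averaged 860.0 ± 43.2 CPM at VB6 day 5 and 114 ± 2.65 CPM at VB6 day 3. Both were far higher at day 5, without overlap. Nkx2-5, a defining factor of heart progenitors, had too few counts to be tested. Without VB6 day 5 replicate 1 or 2 or VB6 day 3 replicate 1, or on log2 TPM values, neither fall was called. In the list of heat shock and immediate early genes, 11 of 14 rose and 1 fell (Hsph1). Atf3, Jun, Junb and Fos, which many stimuli and handling of cells also induce, had log2 fold changes of 2.73, 2.45, 2.43 and 1.46.

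The pluripotency network was lower, unevenly. Of 14 general pluripotency genes tested of 15 listed, 11 fell and 3 rose (Trim71, Lin28a and Sall4), with a median of −0.55. Pou5f1, the Oct4 gene, had 257, 266 and 283 CPM at VB6 day 5, against 724, 756 and 743 CPM at VB6 day 3, a log2 fold change of −1.46 ± 0.08. Nanog had 95.9, 108 and 102 CPM at VB6 day 5, against 152, 153 and 134 CPM at VB6 day 3. Sox2 had 130.5, 131 and 141 CPM at VB6 day 5, against 165, 154 and 163 CPM at VB6 day 3, a log2 fold change of −0.26 ± 0.10 (edgeR adjusted p = 0.0304). The groups did not overlap for any of the 3, but Sox2 changed least, and its call was lost on log2 TPM values (log2 fold change −0.10) and without VB6 day 5 replicate 1 or 2 or VB6 day 3 replicate 1 or 3 (−0.25 or −0.24). Dppa2, a chromatin factor of early embryos, fell most in the list, with 10.4, 11.6 and 8.31 CPM at VB6 day 5, against 61.8, 61.3 and 68.4 CPM at VB6 day 3. Dppa5a and Dnmt3l followed, with log2 fold changes of −2.08 and −1.59.

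Naive-state genes split, with 6 rises and 6 falls in 14 and a median of 0.08. Fgf4, the growth factor ES cells make for themselves, had 17.9, 15.5 and 15.8 CPM at VB6 day 5, against 114, 104 and 117 CPM at VB6 day 3. Esrrb, Tcl1, Nr5a2 and Nr0b1 fell as well, by 1.13, 1.73, 1.83 and 2.87 on the log2 scale. Tbx3, a T-box factor of naive cells that visceral endoderm and liver also use, had 42.4, 41.3 and 41.8 CPM at VB6 day 5, against 13.3, 16.4 and 14.6 CPM at VB6 day 3. Fgf4 and Tbx3 thus moved in opposite directions, each without overlap. In the list of LIF and STAT3 signalling, which upholds the naive state, 11 of 15 rose and 1 fell (Socs2), and 2 fell after the correction. The ligand gene Lif had 12.6, 13.9 and 12.8 CPM at VB6 day 5, against 4.87, 4.48 and 4.65 CPM at VB6 day 3, and the feedback inhibitor Socs3 a log2 fold change of 1.78 ± 0.15. Klf2, another naive factor, did not pass the test (log2 fold change −0.15 ± 0.16, edgeR adjusted p = 0.441), but fell by 0.56 on the log2 scale after a correction for GC content and length.

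Of 14 epiblast genes tested of 16 listed, 4 rose and 6 fell, and 10 fell after the correction for GC content and length. Fgf5, the classic epiblast marker, averaged 118 ± 2.11 CPM at VB6 day 5 and 85.3 ± 5.91 CPM at VB6 day 3, while Otx2 fell by 0.52 and Foxd3 by 1.47 on the log2 scale. Of 13 DNA methylation and demethylation genes, 9 fell and 2 rose, Tet3 among them. Dnmt3b, a de novo methyltransferase, had 650.0, 739 and 776 CPM at VB6 day 5, against 1717, 1680.0 and 1814 CPM at VB6 day 3. Its relatives Dnmt3a and Dnmt3l and the demethylation enzyme Tet1 had log2 fold changes of −1.36, −1.59 and −1.18. Every day 5 library lay below every day 3 library for these genes. Of 22 polycomb genes, 11 fell and 4 rose, with Mtf2 and Phc1 at −0.79 and −0.67, and on log2 TPM values 6 fell.

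By the same rule the steepest falls included Ccno, Piwil1, Capn3, Kirrel2, Bcl11a, Nr0b1, Ttpa, Morc1, Fgf4, Smim40, Nphs1, Mup6, Alox5ap and Hormad1, with log2 fold changes between −3.62 and −2.70. Ccno had the steepest, with 0.783, 1.20 and 0.812 CPM at VB6 day 5, against 11.1, 11.5 and 12.7 CPM at VB6 day 3. Piwil1, Morc1 and Hormad1 act in the germ line, and of 10 listed germ cell genes tested 5 fell and 2 rose. Mael, of the piRNA pathway, had 11.7, 11.9 and 9.25 CPM at VB6 day 5, against 47.7, 45.8 and 39.6 CPM at VB6 day 3. Without VB6 day 3 replicate 1, 3 germ cell genes fell. Mup6 belongs to a family of near-identical copies, so its reads may come from other members. The same holds for Zscan4d and Zscan4f, genes of a rare state like that of the early cleavage embryo, with log2 fold changes of −2.38 and −1.92. Of that list 3 of 7 tested fell and none rose.

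Signalling genes differed by pathway. Of 18 BMP genes, 11 rose and 1 fell (Smad7), a call lost without VB6 day 5 replicate 1 or VB6 day 3 replicate 3. The ligand gene Bmp2 had 15.2, 18.5 and 16.1 CPM at VB6 day 5, against 0.713, 0.867 and 1.48 CPM at VB6 day 3, and the target Id3 65.2, 66.0 and 68.4 CPM at VB6 day 5, against 26.2, 29.0 and 30.5 CPM at VB6 day 3. Both were higher in every day 5 library. The antagonist gene Nog rose as well, by 4.32 on the log2 scale, and 6 genes of the list did not pass the test. Of 14 Nodal genes tested of 15 listed, 5 rose and 7 fell. The targets Lefty1 and Lefty2, which restrain Nodal, and the ligand gene Gdf3 fell by 1.61, 1.59 and 1.44 on the log2 scale. The risers numbered 2 after the correction for GC content and length, and 3 with DESeq2 size factors in edgeR. They also numbered 3 without VB6 day 5 replicate 2, VB6 day 3 replicate 1 or VB6 day 3 replicate 2. The falls numbered 4 on log2 TPM values, where that of Nodal itself was not called (−0.25). Among 18 FGF and ERK genes, 8 rose and 5 fell: the receptor Fgfr2 and the phosphatase Dusp5 had 1.91 and 2.42, and the ERK-responsive factors Etv4 and Etv5 −1.20 and −0.96. Ihh, a hedgehog ligand of visceral endoderm, averaged 10.3 ± 0.852 CPM at VB6 day 5 and 1.93 ± 0.0956 CPM at VB6 day 3, while the receptor gene Ptch1 had a log2 fold change of −0.84. Of 14 Notch genes tested of 15 listed, 7 rose and 1 fell (Dll1). The falls numbered 2 with DESeq2, in a fit of the 6 libraries alone and without VB6 day 5 replicate 3, and 3 after the correction for GC content and length and without VB6 day 3 replicate 3. The receptors Notch1, Notch3 and Notch2 had 1.02, 0.79 and 0.76.

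Imprinted growth genes include abundant risers. H19, an imprinted noncoding RNA, had 619, 597 and 568 CPM at VB6 day 5, against 77.1, 87.3 and 74.8 CPM at VB6 day 3. Its neighbour Igf2, a fetal growth factor, had 322, 304 and 312 CPM at VB6 day 5, against 20.7, 26.1 and 19.4 CPM at VB6 day 3. Both were higher in every day 5 library. Peg10, Sgce, Peg3 and Meg3 had log2 fold changes of 2.09, 2.08, 1.34 and 1.16. Over the list of 18, 8 rose and 4 fell (2 on log2 TPM values), with a median of 0.20. In the Lin28, Igf2bp and let-7 pathway, 8 of 11 tested rose and 1 fell (Lin28b, a call lost on log2 TPM values). Igf2bp2, Igf2bp1 and Igf2bp3, whose proteins bind Igf2 RNA, had 0.89, 0.57 and 0.59.

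Glycolysis genes did not move as a block. Of 26 tested, 8 rose and 12 fell, with a median of −0.16. Against the 29.9% and 26.4% of all genes, the share that rose was similar and the share that fell was larger. Their summed level was 25850 to 25970 CPM at VB6 day 5 and 24440 to 26700 CPM at VB6 day 3, with overlap. Carriers at the membrane rose. The glucose transporter Slc2a3 had 3815, 3837 and 3631 CPM at VB6 day 5, against 1551, 1615 and 1355 CPM at VB6 day 3, and Slc2a1 1626, 1692 and 1775 CPM at VB6 day 5, against 883, 886 and 805 CPM at VB6 day 3. Slc16a1, which carries lactate and pyruvate, had 589, 601 and 565 CPM at VB6 day 5, against 225, 231 and 228 CPM at VB6 day 3. For all 3 carriers every day 5 library was above every day 3 library.

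Several enzymes of the pathway were lower by a small amount. Ldha, which turns pyruvate into lactate, had 1639, 1685 and 1634 CPM at VB6 day 5, against 2076, 2192 and 2053 CPM at VB6 day 3, a log2 fold change of −0.35 ± 0.05 (edgeR adjusted p = 1.36e-06). Pkm, which makes pyruvate, had 3939, 4044 and 4143 CPM at VB6 day 5, against 5131, 5267 and 4989 CPM at VB6 day 3. Neither overlapped between the groups. Ldhb, Hk2 and Pdk1 had log2 fold changes of −0.43, −0.18 and −0.61, and the call for Hk2 was lost on log2 TPM values (−0.16). Eno3 and the regulator Pfkfb3 rose, by 1.32 and 0.85. Slc16a3, a carrier that exports lactate, rose by 0.19 (edgeR adjusted p = 0.0389), a call lost with DESeq2 (0.15), without VB6 day 5 replicate 2 or 3 or VB6 day 3 replicate 1 or 2, and after the correction for GC content and length (−0.07).

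**Figure D3:**
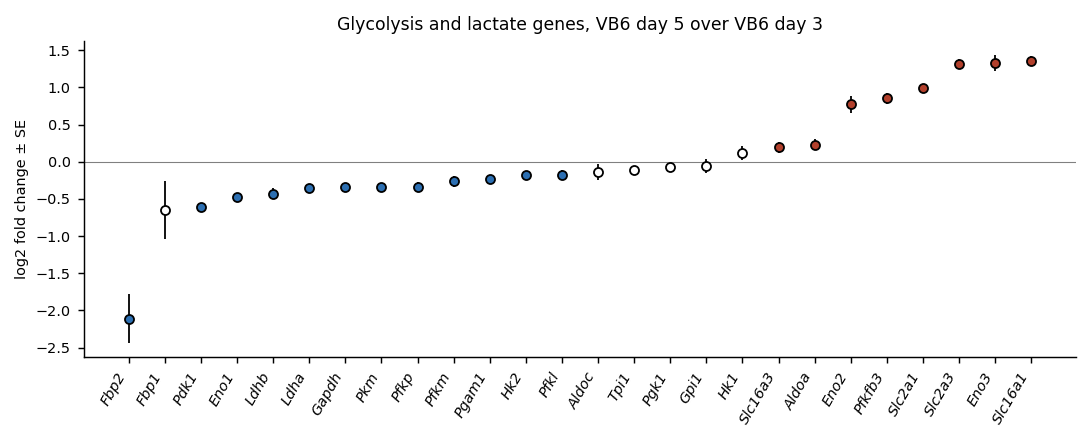
Log2 fold change ± SE, VB6 day 5 over VB6 day 3, of the 26 glycolysis and lactate genes in ascending order. Red and blue points rose and fell, and open points did not pass the test; the carriers Slc16a1 (1.36), Slc2a3 (1.32) and Slc2a1 (0.98) stand with Eno3 (1.32) at the upper end, and Pkm (−0.34) and Ldha (−0.35) below 0.

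Enzymes that write or remove acyl marks on histones mostly moved little. Of 21 tested of 22 listed, 4 rose and 7 fell, with a median of −0.04, a smaller share of rises and a larger share of falls than the 29.9% and 26.4% of all genes. Ep300, an acetyltransferase also known to add lactyl groups, had 234, 237 and 256 CPM at VB6 day 5, against 230.4, 226 and 235 CPM at VB6 day 3. Its groups overlapped and it did not pass the test (edgeR adjusted p = 0.286), while after the correction for GC content and length its log2 fold change was −0.18 and passed. Hdac1, Hdac2 and Hdac3, deacetylases that also remove lactyl groups, had −0.41, −0.31 and −0.17, and Hdac3 had 0.0054 on log2 TPM values. The acetyltransferase Kat2b had −1.47 ± 0.08. The falls in this list numbered 4 on log2 TPM values and 13 after the correction.

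Genes that handle vitamin B6 itself moved modestly. Of 9 tested of 11 listed, 1 rose (Plpbp, by 0.21) and 2 fell. Alpl, whose product removes phosphate from the vitamin outside the cell, had 35.7, 34.1 and 36.2 CPM at VB6 day 5, against 56.0, 59.7 and 51.0 CPM at VB6 day 3. Pdxk, the kinase that traps it inside, had 25.5, 27.4 and 27.9 CPM at VB6 day 5, against 38.7, 35.5 and 36.7 CPM at VB6 day 3. Both were lower in every day 5 library. After the correction for GC content and length, 4 of the list fell and 2 rose.

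Of 37 enzymes tested that use pyridoxal phosphate as cofactor, of 42 listed, 12 rose and 16 fell. Bcat1, which starts the breakdown of branched-chain amino acids, had 45.2, 44.5 and 51.4 CPM at VB6 day 5, against 123, 135 and 133 CPM at VB6 day 3. Odc1, which starts polyamine synthesis, and Shmt1, of the folate cycle, had log2 fold changes of −0.71 and −0.83, and the glycogen phosphorylase Pygl 1.26. In the list of serine, threonine and folate genes, 16 of 20 fell and 2 rose. Tdh, the threonine dehydrogenase of mouse ES cells, had 56.2, 60.5 and 57.6 CPM at VB6 day 5, against 102, 101 and 104 CPM at VB6 day 3. On log2 TPM values, 10 of the pyridoxal phosphate enzymes and 7 of the serine, threonine and folate genes fell.

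Biosynthetic lists were lower. In the list of cholesterol synthesis and uptake, 17 of 23 fell and 2 rose, with a median of −0.48. The rises were not called with DESeq2 or its size factors, without the vehicle day 5 and VB6 day 7 libraries, after the correction for GC content and length or without VB6 day 3 replicate 3, and numbered 1 without any other single library. Lss, which closes the sterol ring, had 72.4, 77.0 and 77.1 CPM at VB6 day 5, against 146, 142 and 139 CPM at VB6 day 3. Idi1 and Hmgcs1, of the early steps of the pathway, had log2 fold changes of −0.92 and −0.73. Of 20 ribosome biogenesis genes, 19 fell and none rose, with a median of −0.61. Ncl, the nucleolin gene, had 1923, 2011 and 1919 CPM at VB6 day 5, against 3535, 3631 and 3744 CPM at VB6 day 3. Rrn3, an RNA polymerase I factor, had 138, 143 and 134 CPM at VB6 day 5, against 289, 293 and 302 CPM at VB6 day 3. In each of these 3 genes all day 5 libraries were below all day 3 libraries. Of 31 cell cycle genes, 8 rose and 15 fell, with the replication genes Pcna and Mcm4 at −0.74 and −0.56, the cyclin genes Ccne1 and Ccnd1 at −0.85 and −1.20, and the inhibitor Cdkn1a at 1.54.

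Retinoid genes, which make, carry and break down vitamin A acids, gave 7 rises and 3 falls in 15 tested of 17 listed. Rdh10, which starts retinoic acid synthesis, had 44.0, 42.4 and 37.1 CPM at VB6 day 5, against 14.7, 14.1 and 15.1 CPM at VB6 day 3. Cyp26a1, which breaks retinoic acid down, had 66.9, 76.0 and 70.3 CPM at VB6 day 5, against 21.3, 25.3 and 27.8 CPM at VB6 day 3. Both were higher in every day 5 library, while the binding protein gene Crabp1 fell by 1.72 on the log2 scale. Of 19 Wnt genes tested of 21 listed, 6 rose and 4 fell. The ligand genes Wnt3 and Wnt6 had log2 fold changes of 2.23 and 1.60, and the transcription factor Lef1 −0.99. The falls in that list numbered 1 on log2 TPM values and 7 after the correction for GC content and length.

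Genes of stress and survival gave mixed counts. Of 16 p53 targets, 8 rose and 2 fell (4 after the correction), and Perp, which also serves epithelial junctions, had 31.8, 31.1 and 30.0 CPM at VB6 day 5, against 8.20, 8.67 and 6.82 CPM at VB6 day 3. Of 17 cell death and survival genes tested of 18 listed, 9 rose and 5 fell. Bcl2, a survival gene, had 6.38, 6.91 and 7.88 CPM at VB6 day 5, against 1.90, 1.01 and 1.09 CPM at VB6 day 3, and Casp8, a caspase gene of the death receptor pathway, 9.12, 9.98 and 12.1 CPM at VB6 day 5, against 2.79, 2.98 and 3.26 CPM at VB6 day 3. Both were higher in every day 5 library, while the survival gene Mcl1 fell by 0.47 on the log2 scale. On log2 TPM values 2 of the list fell. In the list of hypoxia genes outside glycolysis, 7 of 15 tested rose and 4 fell. Vegfa, the growth factor of vessels, had 146, 148 and 160.2 CPM at VB6 day 5, against 41.4, 44.4 and 34.2 CPM at VB6 day 3, while the oxygen sensor gene Egln3 fell by 0.63 on the log2 scale. Of 16 tested genes of the ATF4 amino acid response, 5 rose and 6 fell, against 8 and 1 on log2 TPM values. The amino acid carriers Slc7a3 and Slc7a5 had log2 fold changes of −1.09 and −0.26.

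Of 20 genes of secretion and folding in the endoplasmic reticulum, 10 rose and 4 fell, by modest amounts, and the falls numbered 1 on log2 TPM values and 2 without VB6 day 3 replicate 2 or 3. Xbp1, a factor that enlarges this compartment, had 0.57 ± 0.07, and the chaperone gene Hspa5 0.29 ± 0.05. Of 18 tested glutathione and antioxidant genes, 7 rose and 5 fell, and Gpx3, a secreted peroxidase, had 190.5, 179.9 and 161 CPM at VB6 day 5, against 35.1, 33.6 and 32.2 CPM at VB6 day 3. Of 17 tested genes of iron, haem and copper handling, 5 rose (3 after the correction) and 5 fell, and the iron exporter gene Slc40a1 had a log2 fold change of 0.79. In the list of the Myc family and its partners, 2 of 11 rose and 6 fell, and 2 fell on log2 TPM values. The rises were not called with DESeq2, after the correction for GC content and length, or without VB6 day 5 replicate 3 or VB6 day 3 replicate 2 or 3, and numbered 1 without VB6 day 5 replicate 1 or VB6 day 3 replicate 1. Myc itself had 16.0, 17.8 and 19.6 CPM at VB6 day 5, against 20.9, 23.3 and 29.1 CPM at VB6 day 3, and its call was lost on log2 TPM values (−0.21) and without VB6 day 3 replicate 3 (−0.32). Of 25 genes of antigen presentation and interferon response, 8 rose and 6 fell. B2m, the light chain of class I molecules, had 72.0, 63.2 and 56.1 CPM at VB6 day 5, against 25.3, 24.5 and 23.8 CPM at VB6 day 3. Gpx3 and B2m were higher, and Myc lower, in every day 5 library.

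Ribosomal protein and respiratory genes fell by less, and those calls were less firm. Of 24 ribosomal protein genes, 15 fell and none rose. The falls numbered 8 without VB6 day 5 replicate 3, whose ribosomal share was the lowest, 3 on log2 TPM values and 23 with replicate numbers as a block. The rises numbered 1 on log2 TPM values and 2 after the correction for GC content and length. Rpl5 had the steepest, with 127, 127 and 106 CPM at VB6 day 5, against 184, 197 and 189 CPM at VB6 day 3. Of 26 nuclear subunits of oxidative phosphorylation tested of 30 listed, 17 fell and none rose. On log2 TPM values 6 fell and 2 rose, and after the correction for GC content and length 2 rose. Of 26 citric acid cycle genes, 2 rose and 11 fell, against 9 and 3 on log2 TPM values, and the rises numbered 1 with DESeq2 and without any 1 library other than VB6 day 5 replicate 3. Of 13 mitochondrially encoded genes, 1 rose (mt-Co2) and 8 fell, with mt-Cytb at 1619, 1747 and 1480.0 CPM at VB6 day 5, against 2114, 2286 and 2415 CPM at VB6 day 3. After the correction for GC content and length, 8 rose and none fell, and without VB6 day 3 replicate 3 the falls numbered 5. The call for mt-Co2 was lost with DESeq2 and without any VB6 day 5 library or VB6 day 3 replicate 1 or 2.

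Of 12 hepatoblast genes tested of 18 listed, 7 rose and 1 fell, a call lost on log2 TPM values, after the correction and in a fit of the 6 libraries alone. Cyp3a11, Cyp2e1, Tdo2 and Pck1, genes of mature liver, had too few counts to be tested. Of 10 genes tested for gut, pancreas and lung, 4 rose and none fell, and Vil1, which builds microvilli, had 17.8, 17.4 and 16.6 CPM at VB6 day 5, against 4.04, 3.56 and 5.09 CPM at VB6 day 3. It was higher in every day 5 library. Pdx1, Nkx2-1 and Ptf1a, factors of pancreas and lung, had too few counts to be tested. Of 6 tested homeobox genes of the X-linked Rhox cluster, 2 rose (Rhox5 by 2.26 and Rhox6 by 1.01 on the log2 scale) and 4 fell. The call for Rhox6 was lost without VB6 day 5 replicate 1 or VB6 day 3 replicate 2, and the falls numbered 2 of 4 tested in a fit of the 6 libraries alone and 1 of 3 tested at a mean of at least 1 CPM.

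Markers of other lineages were mixed in level and direction. Of 8 trophoblast genes tested of 12 listed, 7 rose and 1 fell (Ascl2), with a summed level of 37.2 to 41.5 CPM at VB6 day 5 and 14.9 to 18.7 CPM at VB6 day 3. Gata3 and Cdx2, factors of trophoblast, had 3.36, 3.31 and 3.38 CPM at VB6 day 5, against 0.238, 0 and 0.346 CPM at VB6 day 3, and 2.80, 2.73 and 3.38 CPM at VB6 day 5, against 0.416, 0.241 and 0.445 CPM at VB6 day 3. Elf5, Gcm1, Prl3d1 and Tpbpa had too few counts to be tested. Of 14 mesoderm genes tested of 17 listed, 6 rose and 3 fell, with a summed level of 65.4 to 78.5 CPM at VB6 day 5 and 68.4 to 70.1 CPM at VB6 day 3. Of 12 primitive streak genes tested of 13 listed, 4 rose and 1 fell (Nodal). The falls numbered 2 after the correction and without VB6 day 5 replicate 3, and none was called on log2 TPM values. T, the brachyury gene, had 1.40, 1.39 and 0.625 CPM at VB6 day 5, against 0.773, 0.770 and 0.247 CPM at VB6 day 3, with overlap (edgeR adjusted p = 0.103).

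Of 10 fibroblast genes tested of 11 listed, 6 rose and 3 fell (1 on log2 TPM values), with a summed level of 165 to 221 CPM at VB6 day 5 and 89.6 to 98.5 CPM at VB6 day 3. Col1a1 and Col1a2, the chains of collagen I, had 19.5, 25.2 and 28.9 CPM at VB6 day 5, against 5.29, 5.06 and 3.66 CPM at VB6 day 3, and 14.0, 15.3 and 18.9 CPM at VB6 day 5, against 1.66, 1.78 and 1.88 CPM at VB6 day 3. Of 14 neural genes tested of 16 listed, 5 rose and 4 fell, with the progenitor filament gene Nes at 2.17 and the neuronal tubulin gene Tubb3 at −1.29. Their summed level was 152 to 187 CPM at VB6 day 5 and 65.1 to 66.0 CPM at VB6 day 3, most of it at VB6 day 5 from Nes, with a mean of 129.5 CPM at VB6 day 5 and 28.7 CPM at VB6 day 3. Of 9 neural crest genes, 3 rose (Ets1, Erbb3 and Snai2) and 1 fell (Foxd3). They summed to 129 to 141 CPM at VB6 day 5 and 89.6 to 97.6 CPM at VB6 day 3, while the defining factor Sox10 averaged 1.51 CPM at VB6 day 5 and 1.51 CPM at VB6 day 3. Of 7 blood and endothelial genes tested of 15 listed, 1 rose (Runx1) and 4 fell. Hox genes were near their floor, of 13 tested 2 rose and 5 fell (2 after the correction, and none at a mean of at least 1 CPM, where 1 was tested), with a summed level of 5.50 to 6.49 CPM at VB6 day 5 and 7.70 to 9.39 CPM at VB6 day 3. The rises of Hox genes numbered 1 without VB6 day 5 replicate 1 or VB6 day 3 replicate 2. The part of any of these cell types in the other changes was not tested.

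The change with VB6 was then set against the change over the same days with vehicle. That difference uses the vehicle day 5 libraries, whose fragments were shorter, at 221.5 to 238 nucleotides, and an effect of fragment length and one of the vehicle at day 5 cannot be told apart. Of 18901 genes, the change was higher with VB6 for 5099 (27%) and lower for 3971 (21%). After the correction for GC content and length, the numbers were 2522 (16.5%) and 2346 (15.4%) of 15279. On log2 TPM values limma gave 2848 higher and 4820 lower. Most log2 differences below, VB6 minus vehicle, are therefore given as fitted and as corrected, by edgeR with adjustment over all genes.

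Sox17, Foxa2, Ttr and basement membrane genes had a higher change with VB6 under both fits. Sox17 averaged 32.5 CPM at day 5 and 3.35 CPM at day 3 with VB6, against 10.5 CPM at day 5 and 4.53 CPM at day 3 with vehicle, a log2 difference of 2.06 as fitted and 1.62 as corrected. Col4a1 averaged 857 CPM at day 5 and 216 CPM at day 3 with VB6, against 335 CPM at day 5 and 308 CPM at day 3 with vehicle, a difference of 1.87 and 1.25. The difference for Foxa2 was 1.31 and 0.62, for Lama1 1.35 and 1.01, and for Ttr 0.75 and 0.78. Of 16 basement membrane genes, 15 were higher as fitted and 10 as corrected, and none was lower. Gata4 and Hnf4a had 0.59 and 0.53 as fitted, and as corrected −0.11 and 0.16, which did not pass the test. Afp and Apoa1 did not pass in either fit, with −0.27 and 0.21 as fitted. Neither did Slc2a3, with 0.13 as corrected. Of 26 glycolysis and lactate genes, 14 were higher and 2 lower as fitted, against 1 higher and 6 lower as corrected. The differences for Ldha, Ldhb, Pkm, Slc2a1 and Slc16a1 changed sign after the correction, so the direction in this list depended on the fit.

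Among stem cell genes, Sox2 averaged 134 CPM at day 5 and 161 CPM at day 3 with VB6, against 61.5 CPM at day 5 and 218 CPM at day 3 with vehicle, a log2 difference of 1.56 as fitted and 1.36 as corrected. Klf2 averaged 22.3 CPM at day 5 and 24.7 CPM at day 3 with VB6, against 8.51 CPM at day 5 and 47.1 CPM at day 3 with vehicle, a difference of 2.32 and 1.21. The means with VB6 thus lay below those with vehicle at day 3 and above them at day 5, which was not tested within a day. Nanog had the opposite sign, with −0.72 and −0.51. Pou5f1 had 0.63 as fitted and −0.18 as corrected, which did not pass. The primitive streak genes Mixl1 and T had −1.53 and −1.95 as fitted and −1.55 and −2.33 as corrected, and the call for T was lost without VB6 day 5 replicate 3, VB6 day 3 replicate 1 or 2, vehicle day 3 replicate 2 or vehicle day 5 replicate 2.

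**Figure D4:**
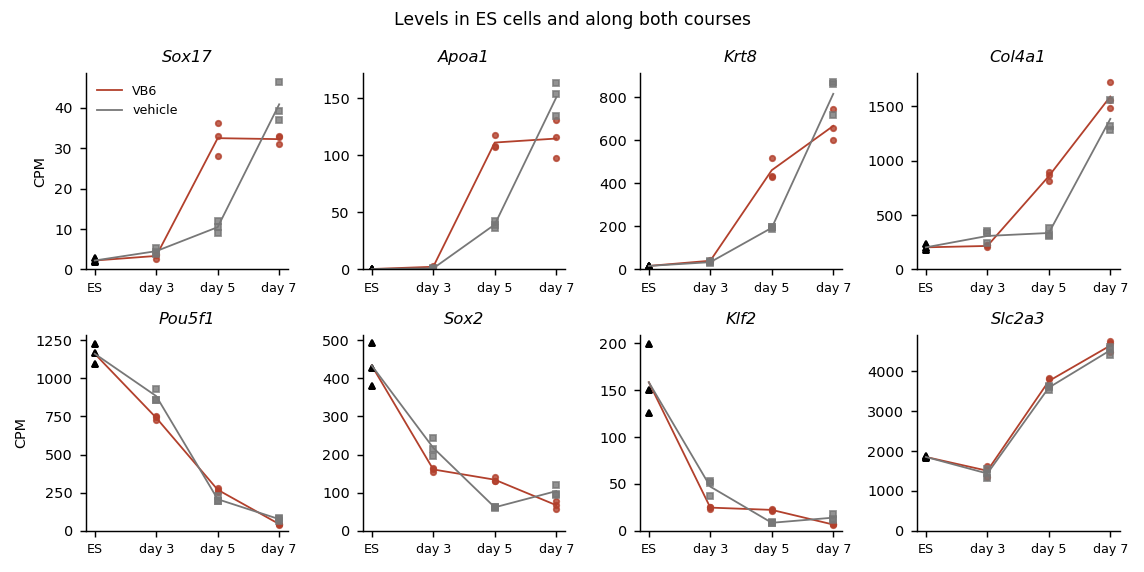
CPM of 8 genes in ES cells (triangles) and at days 3, 5 and 7 with VB6 (circles, red lines) or vehicle (squares, grey lines); points are libraries and lines join means of 3. At day 5 Sox17 averages 32.5 CPM with VB6 and 10.5 CPM with vehicle, and Slc2a3 3761 CPM with VB6 and 3595 CPM with vehicle; vehicle day 5 and VB6 day 7 are the groups with short fragments.

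The 8 highest differences were those of Erhrt-ps, Srp54b, Exosc6, Or2y16, Akap17a, Irx3, Sp5 and Sox1. The first 5 were also low at VB6 day 7, the other group with short fragments. Or2y16, named as an olfactory receptor gene, averaged 328, 163 and 19.04 CPM at days 3, 5 and 7 with VB6, against 298 and 14.2 CPM at days 3 and 5 with vehicle. Srp54b has near-identical copies that can share its reads. Sox1 and Irx3, neural regulators, and Sp5, a Wnt target, averaged 5.85, 6.22 and 7.99 CPM at VB6 day 5, against 1.86, 1.43 and 2.10 CPM at vehicle day 5. The 8 lowest were Rnaset2b, Myb, Nopchap1, Cmah, Mal2, Adarb2, Oprk1 and Sh3bgrl. Myb, a factor of blood progenitors, averaged 12.6 CPM at day 5 and 40.0 CPM at day 3 with VB6, against 36.2 CPM at day 5 and 28.3 CPM at day 3 with vehicle.

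**Figure D5:**
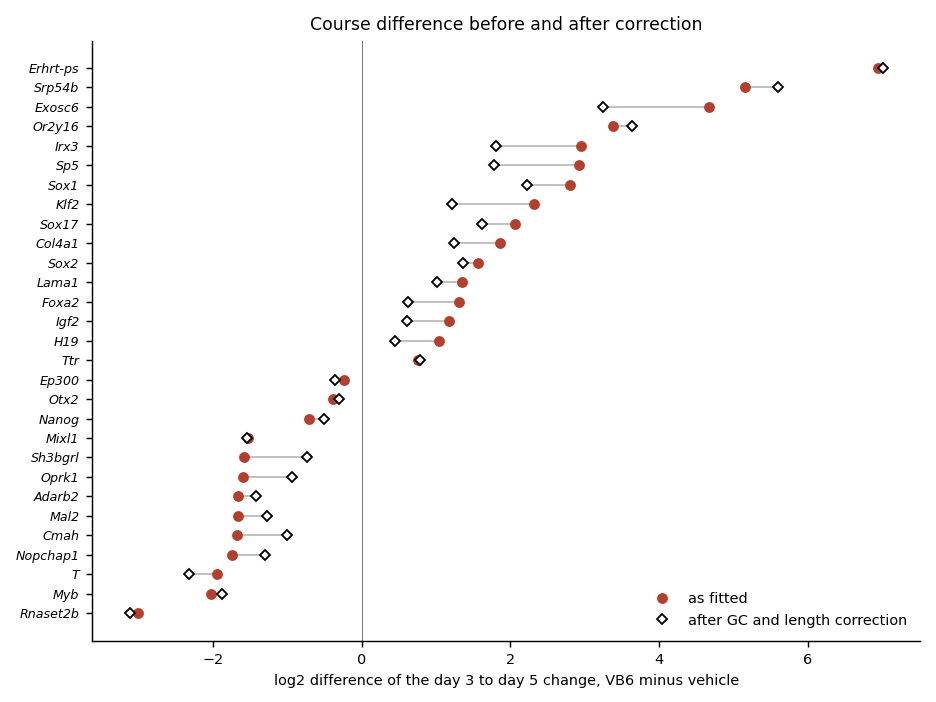
Log2 difference of the day 3 to day 5 change, VB6 minus vehicle, of genes called both as fitted (filled circles) and after correction for GC content and length (open diamonds). Sox17 stands at 2.06 and 1.62, and Klf2 at 2.32 and 1.21. Genes of the fixed set are shown only if both values passed with the same sign, so that their signs are kept follows from the choice.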

How the data were processed

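Total RNA of E14 cells was sequenced in 21 libraries, 3 for each of 7 groups. The authors deposited expected counts per gene, and the submitters' processing notes name mm10 as genome build. For the aligner and the counting program, nothing is stated in the sources used here. The authors also deposited TPM values, used for an alternative test, and FPKM values. The FPKM values, with the counts, gave the estimated fragment lengths and the gene lengths used in the correction. The label protocols also speak of a small RNA enrichment, and how that applies to these libraries is not known.

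Counts were rounded to whole numbers, which changed the total by 0.00024%. The test had been planned for counts and was kept. It was edgeR 4.0.16 (quasi-likelihood, TMM, filterByExpr) in R 4.3.3 fitted to the 21 libraries with 1 mean for each group, with Benjamini-Hochberg adjustment over 18901 genes and calls under 0.05. CPM values are TMM-scaled. Of 78317 gene rows, 21909 have no symbol. Alternatives were DESeq2 1.42.0, its size factors, other filters and sets of libraries, replicate blocks and limma 3.58.1 on log2(TPM + 0.5). A further alternative was an offset for GC content (GENCODE annotation of the same build) and for length, estimated from counts and FPKM values. The code was tested on simulated data. Intervals and floors of counts cover counting error only.

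The comparison, the gene lists and the genes named were chosen with earlier results of these data known. Genes named are the 15 highest and 15 lowest fold changes at 5 CPM or more, up to 6 of smallest p per list, 8 course differences in each direction and a fixed set. A2m, Cdh2, Cer1, Cxcr4, Fetub, Gsc, Pltp, Sox10, Spp1, Zeb2 and single genes given in parentheses were chosen after their values were seen. Some genes that the rule names are not reported here.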

Additional observations from a re-analysis of the deposited data

Results flagged for a closer look

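Each value here is a log2 difference, the change between day 3 and day 5 with VB6 minus that with vehicle, that passed edgeR's test of the difference itself (adjusted p under 0.05), with the value after correction for GC content and length in parentheses. The vehicle day 5 libraries have short fragments, so both values stand together. Genes of the fixed set are given here only if the corrected value also passed with the same sign. Gata4, Hnf4a and Afp are left out by that rule, so a shared direction among those given is no result.

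Among endoderm genes the differences were 2.06 (corrected 1.62) for Sox17, 1.31 (corrected 0.62) for Foxa2 and 0.75 (corrected 0.78) for Ttr. Basement membrane genes had 1.87 (corrected 1.25) for Col4a1 and 1.35 (corrected 1.01) for Lama1. Imprinted genes had 1.04 (corrected 0.45) for H19 and 1.17 (corrected 0.61) for Igf2. For stem cell and epiblast genes they were 1.56 (corrected 1.36) for Sox2, 2.32 (corrected 1.21) for Klf2, −0.72 (corrected −0.51) for Nanog and −0.39 (corrected −0.30) for Otx2, so Sox2 and Klf2 had the opposite sign to Nanog and Otx2. For the primitive streak genes they were −1.95 (corrected −2.33) for T and −1.53 (corrected −1.55) for Mixl1. The histone acetyltransferase gene Ep300 had −0.24 (corrected −0.36), a call lost without VB6 day 5 replicate 1 (−0.21) or vehicle day 3 replicate 1 (−0.19).

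The highest differences were 6.94 (corrected 7.01) for Erhrt-ps, 5.16 (corrected 5.60) for Srp54b, 4.67 (corrected 3.25) for Exosc6, 3.38 (corrected 3.64) for Or2y16 and 3.04 for Akap17a, the last without GC content and length to correct for. Those 5 genes were low in both groups with short fragments, at vehicle day 5 and VB6 day 7, and the part of fragment length in them was not tested. They were followed by 2.95 (corrected 1.80) for Irx3, 2.92 (corrected 1.78) for Sp5 and 2.80 (corrected 2.23) for Sox1.

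The lowest were −3.01 (corrected −3.12) for Rnaset2b, −2.03 (corrected −1.88) for Myb, −1.74 (corrected −1.31) for Nopchap1, −1.68 (corrected −1.005) for Cmah, −1.67 (corrected −1.27) for Mal2, −1.66 (corrected −1.42) for Adarb2, −1.59 (corrected −0.94) for Oprk1 and −1.58 (corrected −0.73) for Sh3bgrl.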

How the results depend on the processing

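Between VB6 day 5 and VB6 day 3, edgeR called 10628 genes, and 9199 to 10656 under the other tests, filters, scalings and sets of libraries tried. With limma on log2 TPM values 2963 genes were lower. For the difference between the VB6 and vehicle courses, 9070 genes were called, and 4868 after the correction for GC content and length, of which 2522 were higher and 2346 lower. With limma on log2 TPM values 2848 were higher. Without 1 library at a time, the first comparison had 9710 to 9986 genes called, 5172 to 5349 higher and 4510 to 4637 lower. The second had 8418 to 8954 called, 4701 to 5044 higher and 3676 to 3910 lower. Of the 378 genes that the naming rule picks here, 363 were called, against 56.2% of all genes tested. Most were picked by fold change or small p, so that share follows from the choice. Without 1 library, 359 to 362 of them were called. Over all lists 740 members were called, against 697 to 719 without 1 library. Genes in more than 1 list count more than once there.

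Same-numbered replicates did not deviate together between VB6 day 5 and VB6 day 3 (r over genes of −0.0495, −0.0216 and −0.031). Between VB6 day 5 and vehicle day 5 the values were 0.056, 0.196 and 0.195, of which not all are above 0.1, so the numbers were not taken to pair the samples. With the replicate block 10590 genes were called in the first comparison and 9402 in the second.

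Of the recomputed fold changes of genes picked by that rule, 5537 kept their direction and their call, 55 lost the call, 20 gained one and 11 changed sign, and the cause was not tested. With limma on log2 TPM values Hdac3 had 0.0054 and Mlx 0.031. After the correction, Slc16a3 had −0.068, Ep300 −0.18, Smo −0.070, Ndufa4 0.013, mt-Nd1 0.12, mt-Nd4 0.14, mt-Nd2 0.20, mt-Nd3 0.38 and mt-Nd4l 0.22. Of the recomputed course differences, 12 had the opposite sign to the value as fitted. With limma Gata4 had −0.096, Ldha −0.51 and Hk2 −0.27. After the correction, Pou5f1 had −0.18, Gata4 −0.11, Apob 0.070, Ldha −0.12, Ldhb −0.38, Pkm −0.19, Slc2a1 −0.020, Slc16a1 0.042 and Pdxk −0.038.

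The correction covers the 80.8% of tested genes with a GC content and length. A gene at the level of 3 counts, 0.139 to 0.189 CPM in these 6 libraries, cannot be told from one with no reads, and all precision rests on 3 libraries a group.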
